A study of Mus musculus with 6 samples.

Results

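Of 26467 liver nuclei past the quality limits, 428 (1.62%) were large vessel and lymphatic endothelial nuclei, chosen by the UMI counts (distinct RNA molecules) of a few genes. A nucleus was taken with at least 500 genes and 1000 UMIs, under 5% mitochondrial UMIs and under 0.3% of UMIs from the hepatocyte genes Apob, Cps1, Abcb11 and Mat1a. It also had at least 3 UMIs summed over the endothelial genes Ptprb, Flt1, Kdr, Pecam1 and Flt4, at least 2 UMIs of Vwf and Mmrn1 together, and at most 2 of the macrophage and stellate genes Clec4f and Lrat together. The hepatocyte limit left 21176 nuclei, the endothelial minimum 11906, the Vwf and Mmrn1 minimum 441, and the last limit 428. The counts of these genes chose the nuclei and are given only as a description.

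Single-nucleus RNA-seq was made from livers of 6 male C57BL/6JBomTac mice, 18 weeks old, fed chow and fasted overnight for 12 hours, with 1 library per mouse. In 3 mice Plvap was knocked out in hepatic stellate cells (HSC-Plvap knockout, designated Plvaptm1.1Salm-Tg(Lrat-cre)1Rshw, in which Lrat regulation drives Cre), and 3 were littermate controls on the same diet and fast. Both groups carry that designation in the labels, which do not say whether the controls had Cre, and no source used here gives the deleted exons. Stellate cells, the retinoid-storing pericytes of the sinusoid, are the labelled site of deletion, and the labels name no deletion in endothelium.

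Vwf encodes von Willebrand factor, which endothelial cells store in Weibel-Palade bodies and release at sites of injury, and in the liver it marks the endothelium of veins and arteries more than that of the sinusoid. Its gene lies on mm10 chromosome 6 at 125546774 to 125686679 (plus strand), and Mmrn1 on the same chromosome at 60924976 to 60989378 (plus strand). Mmrn1, multimerin 1, is strong in lymphatic endothelium, where Prox1 sets identity. Plvap builds the diaphragms that span caveolae and fenestrae, and liver sinusoidal endothelium in the adult is known for open fenestrae without them.

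Library totals ran from 23153182 to 27199466 UMIs and held 27297 barcodes, of which 77 sequences occurred in more than 1 library. Scrublet called 3.04% of nuclei doublets and 6 of the 428 (1.40%), which were kept. Control 1 and knockout 2 stood apart: a hepatocyte gate found 44 nuclei in knockout 2 and 64 in control 1, against 501 to 838 in the other libraries. Values that change without these 2 libraries are given beside the result.

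The 428 nuclei comprised 57, 63 and 61 from knockout mice 1 to 3 and 79, 120 and 48 from control mice 1 to 3, with a median depth of 3796 UMIs. They were 3.55% ± 0.552 of endothelial nuclei in knockout mice and 4.73% ± 1.18 in control mice (SD, n = 3 each). That difference of -1.17 percentage points did not pass a two-sided exact permutation test over mice (p = 0.2, adjusted over 2 shares p = 0.4; the smallest p possible is 0.1). The shares are of nuclei recovered, not of cells in the tissue.

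Vwf and Mmrn1 split the nuclei almost without overlap. More Vwf than Mmrn1 UMIs were found in 391 nuclei (Vwf-led), with a median of 4 Vwf UMIs and a range of 2 to 31. The other 37 nuclei were Mmrn1-led, with a median of 8 Mmrn1 UMIs and a range of 2 to 29. Only 1 nucleus held UMIs of both genes, and none was tied. Vwf-led nuclei numbered 53, 57 and 60 in knockout mice and 75, 98 and 48 in control mice.

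Mmrn1-led nuclei numbered 4, 6 and 1 in knockout mice and 4, 22 and 0 in control mice, so 22 of the 37 came from control 2 and none from control 3. Their share of the vessel nuclei was 6.06% ± 4.03 in knockout mice and 7.80% ± 9.47 in control mice (SD, n = 3 each; two-sided exact permutation p = 0.9). Without control 2 the difference of -1.74 points turned to 3.53 points, so the groups cannot be ordered. All statements on Mmrn1-led nuclei rest mainly on 1 control mouse.

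**Figure D1:**
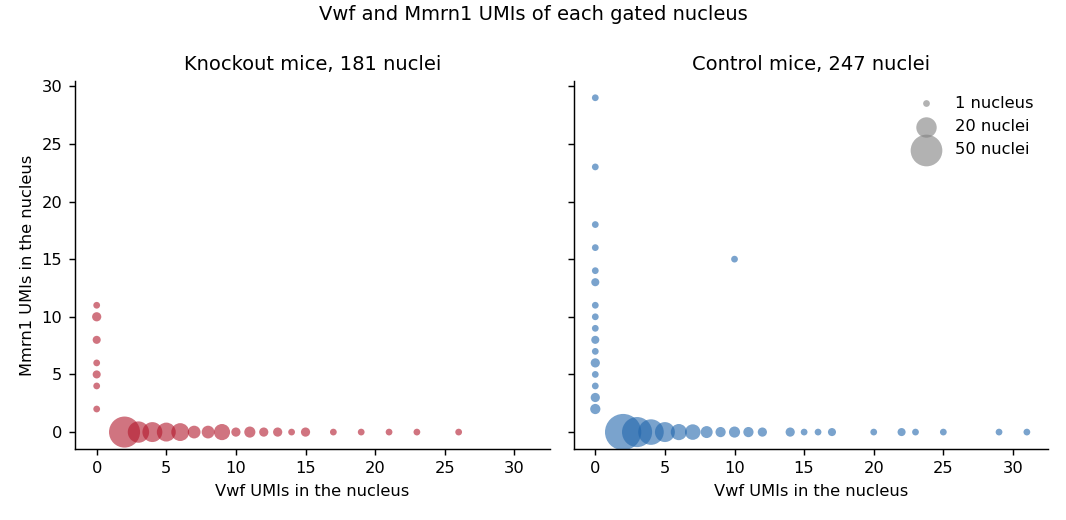
Vwf UMIs (x axis) against Mmrn1 UMIs (y axis) of each of the 428 gated nuclei, knockout mice left and control mice right, with point area growing with the number of nuclei at that pair of counts. The nuclei lie along the axes, since only 1 nucleus held UMIs of both genes.

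The labels of the 2 subsets were checked against genes that the gates did not use. Of the 9 lymphatic markers outside the gates, 1 of 391 Vwf-led nuclei carried UMIs of at least 3 and 278 carried none, whereas each of the 37 Mmrn1-led nuclei carried at least 3, with a median of 5. Prox1 was detected in 7 of 391 Vwf-led nuclei and 34 of 37 Mmrn1-led ones, at 4.36 CPM in Vwf-led and 987 CPM in Mmrn1-led nuclei pooled over mice. CPM is a gene's UMIs as a part of all UMIs of the class, on the usual CPM scale. Reln, an extracellular glycoprotein of lymphatic endothelium that stellate cells also make, was in 35 of 37 Mmrn1-led nuclei. Ccl21a, the chemokine that guides dendritic cells into lymphatics, was in 17 of 37, and Pdpn, podoplanin, in 0 of 391 Vwf-led and 9 of 37 Mmrn1-led nuclei.

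Pecam1, which was in the gate, was detected in 96.4% of Vwf-led and 89.2% of Mmrn1-led nuclei. Platelets also contain Vwf and Mmrn1, and their defining markers Pf4, Ppbp, Gp9, Gp1bb, Tubb1 and Treml1 had 0 UMIs in the 428 nuclei. Of that list of 8 only Itgb3 and Itga2b, at 153 and 5 UMIs, were present. Msln and Upk3b, which mark mesothelium, and Acta2, which marks smooth muscle, had 0 UMIs, but other members of their lists were present. Of 6 mesothelial markers 4 had a UMI, among them Krt18, Wt1 and Upk1b. Of 10 fibroblast and smooth muscle markers 6 had a UMI, among them Myh11, Tagln, Cnn1, Pdgfra and Gpc3. Gpm6a of the mesothelial list and Eln of the fibroblast and smooth muscle list had 1059 and 1315 UMIs, and Ebf1 of the B cell list had 166 CPM in Vwf-led and 1565 CPM in Mmrn1-led nuclei. The part of other cells in these levels was not tested. Stab2, the sinusoidal scavenger receptor, was at 0 in 309 of the 428 nuclei and at 2 or more UMIs in 78 (18.2%). The name vessel is used below for the whole set, with that reservation.

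The 119 nuclei just inside, with exactly 2 UMIs of Vwf and Mmrn1, had 132 CPM of Plvap and 805 CPM of Stab2. The 213 nuclei just outside, with 1 UMI, had 86.7 CPM of Plvap and 2910 CPM of Stab2. Of these, 26.9% just inside and 52.6% just outside had at least 2 Stab2 UMIs.

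Plvap, the targeted gene (ENSMUSG00000034845, mm10 chromosome 8, 71497765 to 71511752, minus strand, per GENCODE M21), was read in each mouse first. In stellate nuclei, gated by at least 3 Lrat UMIs, it stood at 232, 196 and 170 CPM in knockout mice and at 278, 261 and 212 CPM in control mice. The ranges overlapped, and since a 3′ tag can lie outside the deleted part, this level is a check of neither the labels nor the deletion.

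In vessel nuclei Plvap stood at 138, 112 and 119 CPM in knockout mice and at 135, 112 and 133 CPM in control mice. The ranges of the groups overlapped almost fully. The fitted log2 difference was -0.04 (SE 0.24), with an approximate 95% interval of -0.51 to 0.43 and an edgeR adjusted p of 0.999. In Vwf-led nuclei alone it was 0.04 (SE 0.26). Its sign turned under several other settings, so no direction is given, and the interval still allows a change in either direction.

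Against sinusoidal nuclei, which met the same limits with no Vwf or Mmrn1 UMI and at least 2 Stab2 UMIs (8807 nuclei), Plvap was higher in vessel nuclei of every mouse. Sinusoidal nuclei held 19.3, 15.7 and 7.80 CPM in knockout mice and 22.1, 20.3 and 13.5 CPM in control mice. The vessel level was 5.50 to 15.2 times the sinusoidal level within a mouse, and no vessel value came near a sinusoidal one. The log2(CPM + 1) difference averaged 2.91 ± 0.498 (SD, n = 6) and was positive in 6 of 6 mice (two-sided exact sign-flip permutation p = 0.03125, the smallest possible). The edgeR fit with mouse as a block gave 2.88 (SE 0.19, adjusted p = 8.4e-15).

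Both levels lay above the background of cells that should lack Plvap. Clec4f-high nuclei, a macrophage gate, held 4.30, 3.11 and 2.62 CPM in knockout mice and 7.24, 8.96 and 6.36 CPM in control mice, without overlap. The hepatocyte gate held 0 to 2.39 CPM in knockout mice and 1.83 to 2.98 CPM in control mice. In each mouse the sinusoidal level was above the Clec4f-high level. The part of this background in the Plvap level of the other classes was not tested. By mouse, 28.3% to 37.5% of Clec4f-high nuclei had at least 2 Stab2 UMIs, against 0% to 3.08% in the hepatocyte gate. The part of sinusoidal RNA in the Clec4f-high level was not tested. A Plvap UMI was found in 33.6% of vessel, 5.50% of sinusoidal, 1.79% of Clec4f-high and 1.98% of hepatocyte nuclei, at median depths of 3796, 3559, 4256 and 10940 UMIs. With every nucleus thinned to 1000 UMIs these shares were 9.35%, 1.54%, 0.544% and 0.272%. The gap between vessel and sinusoidal nuclei was 0.377 log2 units wider in knockout than in control mice (two-sided exact permutation p = 0.5, smallest possible 0.1), and in the edgeR fit it was 0.42 (SE 0.36, adjusted p = 1, approximate interval -0.27 to 1.12).

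**Figure D2:**
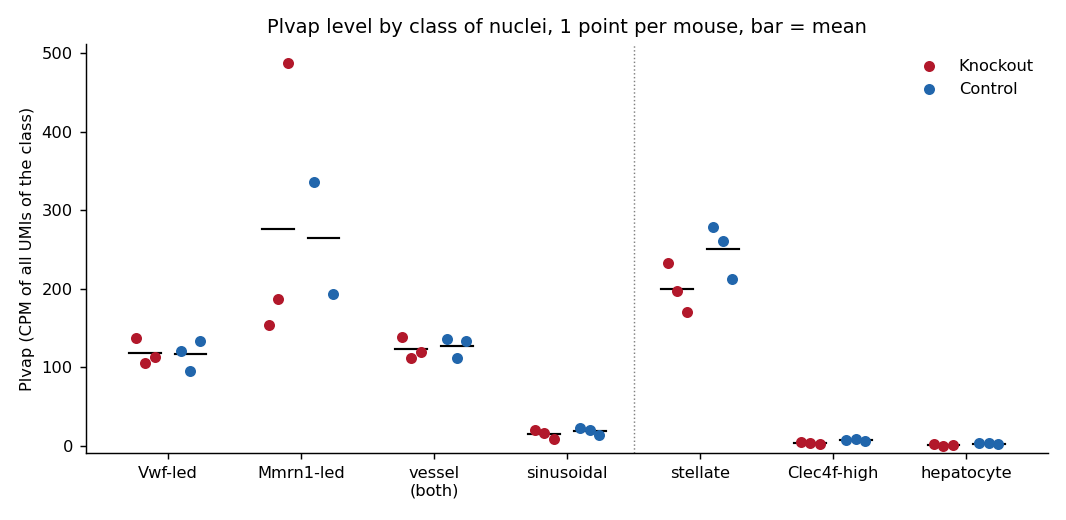
Plvap level (y axis, CPM of all UMIs of the class) in 7 classes of nuclei (x axis), 1 point per mouse with knockout left of control in each class and a bar at the mean. Vessel nuclei sit between 112 and 138 CPM in both genotypes and sinusoidal nuclei between 7.80 and 22.1 CPM, and control 3 has no Mmrn1-led point.

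Plvap was present on both sides of the split, at 137, 105 and 113 CPM in Vwf-led nuclei of knockout mice and 120, 95.4 and 133 CPM in those of control mice. Mmrn1-led nuclei held 153, 186 and 487 CPM in knockout mice and 336 and 193 CPM in the control mice that had any, from 2 to 16 UMIs each. The Vwf-led over Mmrn1-led difference of -0.97 (SE 0.46) did not pass, with an edgeR adjusted p of 0.17 and an approximate interval of -1.87 to -0.07. Stellate nuclei held 170 to 278 CPM of Plvap, and the part of stellate RNA in the Mmrn1-led level was not tested.

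Vessel nuclei differed from sinusoidal nuclei in a large part of the transcriptome: of 11525 genes that passed the low-count filter, 2850 (24.7%) passed an adjusted p of 0.05 in edgeR, 1345 higher (11.7%) and 1505 lower (13.1%). Genes used by the gates were not tested. Since the gates pick cell states, genes that go with Vwf or Stab2 were bound to differ, and the counts describe the 2 classes. Rises and falls were ranked among called genes above a minimum mean level in the higher class, without predicted-gene symbols. Of the 10 largest rises so ranked, Edn1, the vasoconstrictor endothelin 1, averaged 251 ± 79.3 CPM in vessel and 0.596 ± 0.431 CPM in sinusoidal nuclei (SD, n = 6; log2 fold change 8.61, SE 0.23). Gja5, the gap junction protein connexin 40 of arterial endothelium, averaged 121 CPM in vessel and 0.652 CPM in sinusoidal nuclei (7.35, SE 0.35), and Eln, elastin, 677 CPM in vessel and 3.80 CPM in sinusoidal nuclei (7.33, SE 0.27). Plat, tissue plasminogen activator, averaged 57.8 CPM in vessel and 0.310 CPM in sinusoidal nuclei (7.32, SE 0.47). The rest of those 10 were Fndc1, Bmx, Adamtsl1, Wipf3, Thsd7a and Mal, at log2 fold changes of 7.36 to 9.35, of which Thsd7a was the most abundant at 1481 CPM in vessel nuclei and 7.88 CPM in sinusoidal nuclei.

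The 10 largest falls by the same ranking included Adam23, a disintegrin protein, with 220 ± 93.1 CPM in vessel and 3001 ± 858 CPM in sinusoidal nuclei (log2 fold change -3.84, SE 0.11). Anapc15, a subunit of the anaphase-promoting complex, averaged 46.0 CPM in vessel and 785 CPM in sinusoidal nuclei (-4.15, SE 0.13). Olfr1396 and Ctnna3 had 1 and 2 UMIs in vessel nuclei against 54.4 and 104 CPM in sinusoidal nuclei. From those counts the sinusoidal level was above the vessel level by a factor with counting limits of 17.1 to 3778 for Olfr1396 and 24.9 to 744 for Ctnna3. Tbxas1, Aass, Gatm, Enpep, Fgf1 and Plet1os fell by 3.89 to 4.23 on the log2 scale.

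Genes of caveolae and their diaphragms were mostly higher in vessel nuclei: of 12 listed and tested, 9 rose and 1 fell, with a median log2 fold change of 1.58 against -0.02 over all tested genes. Plvap is 1 of the 9. Over all tested genes 11.7% rose and 13.1% fell, the shares to set beside each list below. Cav1, the coat protein of caveolae, averaged 92.4 ± 34.3 CPM in vessel and 12.0 ± 2.20 CPM in sinusoidal nuclei (2.88, SE 0.23). Ehd4 and Ehd2, ATPases at the caveolar neck, reached 490 and 78.4 CPM in vessel nuclei, against 48.5 and 0.753 CPM in sinusoidal nuclei.

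Weibel-Palade, coagulation and vessel tone genes rose in 9 and fell in 2 of 14 tested of 18 listed (median 0.70). Selp, P-selectin, stored beside von Willebrand factor, averaged 118 ± 40.5 CPM in vessel nuclei and 3.00 ± 1.53 CPM in sinusoidal nuclei (5.23, SE 0.26). Ece1, which matures endothelin, averaged 422 CPM in vessel and 117 CPM in sinusoidal nuclei (1.80, SE 0.11). Of the leukocyte adhesion and chemokine list, 4 of 10 tested rose and 2 fell, with Icam1 up by 1.21 (SE 0.20) and Cd34 by 1.41 (SE 0.29), and the scavenger receptor Stab1 at -0.80 (SE 0.10).

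Matrix genes rose in 9 and fell in 3 of 18 tested of 22 listed (median 0.75). Besides Eln, the elastic fibre proteins Fbln2 and Fbn1 averaged 177 and 335 CPM in vessel nuclei against 1.43 and 48.1 CPM in sinusoidal nuclei. Mgp, matrix Gla protein, which restrains calcification of vessel walls, averaged 50.9 CPM in vessel and 1.16 CPM in sinusoidal nuclei (5.31, SE 0.42).

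Secreted signals of the endothelium went both ways, with 7 rises and 5 falls among 13 tested (median 0.50). Rspo3, the R-spondin that sustains Wnt signalling around the central vein, averaged 1615 ± 250 CPM in vessel and 107 ± 26.5 CPM in sinusoidal nuclei (3.88, SE 0.12). Wnt9b, also of the central vein, rose by 2.94 (SE 0.16), whereas Wnt2 fell by 0.81 on the log2 scale. Bmp4 rose by 6.03 (SE 0.33) and Bmp2, which drives hepcidin in hepatocytes, fell by 3.11 (SE 0.13) on the log2 scale, at 70.8 CPM in vessel nuclei against 577 CPM in sinusoidal nuclei. Igfbp7 fell by 1.70 (SE 0.09).

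Notch genes rose in 5 of 8 tested of 11 listed and none fell, led by the ligand Jag1 with 182 CPM in vessel and 18.3 CPM in sinusoidal nuclei (3.22, SE 0.17). Dll4 rose by 0.85, Notch1 by 0.42 and the feedback inhibitor Nrarp by 2.07. Junction genes rose in 8 and fell in 1 of 14 tested, with Jam2 up by 1.19 (SE 0.11), Afdn by 0.63 (SE 0.10), and Gja1 at -0.98 (SE 0.16). Receptors of VEGF, angiopoietin and TGFb family ligands rose in 5 and fell in 4 of 12 tested. Tgfbr2, Acvrl1 and Bmpr2 rose by 1.01, 1.61 and 0.47, and the VEGF coreceptor Nrp1 fell by 1.45 (SE 0.09).

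Endothelial transcription factors rose in 7 and fell in 3 of 22 tested of 26 listed (11.7% higher and 13.1% lower over all tested genes). Maf, which maintains sinusoidal identity, averaged 461 CPM in vessel and 1948 CPM in sinusoidal nuclei (-2.14, SE 0.10), and Ets1 fell by 1.51 on the log2 scale, while Fli1 rose by 0.78 and Gata6 by 3.60. Genes of fatty acid and lipoprotein handling rose in 4 and fell in 2 of 18 tested of 24 listed (median -0.05), beside the same shares over all tested genes. Fabp4, a fatty acid carrier of vascular endothelium, averaged 341 ± 142 CPM in vessel and 74.01 ± 24.3 CPM in sinusoidal nuclei (2.11, SE 0.13), and Gpihbp1, which anchors lipoprotein lipase, was at -0.49 (SE 0.12).

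Of 15 sinusoidal markers tested, 14 fell and none rose, with Mrc1 at 366 CPM in vessel and 2189 CPM in sinusoidal nuclei (-2.65, SE 0.09) and Fcgr2b at -2.42 (SE 0.11). Arterial and periportal markers rose in 9 of 12 tested and large vein markers in 8 of 11, with no fall in either list. Central vein markers rose in 4 and fell in 2 of 6, with Cdh13 at 1.25 (SE 0.10) and Kit at -2.50 (SE 0.20). Interferon response genes rose in 1 and fell in 3 of 19, against 11.7% higher and 13.1% lower over all tested genes. None of 19 tested hepatocyte transcripts that are abundant as free RNA passed in edgeR, and their median was -0.06.

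**Figure D3:**
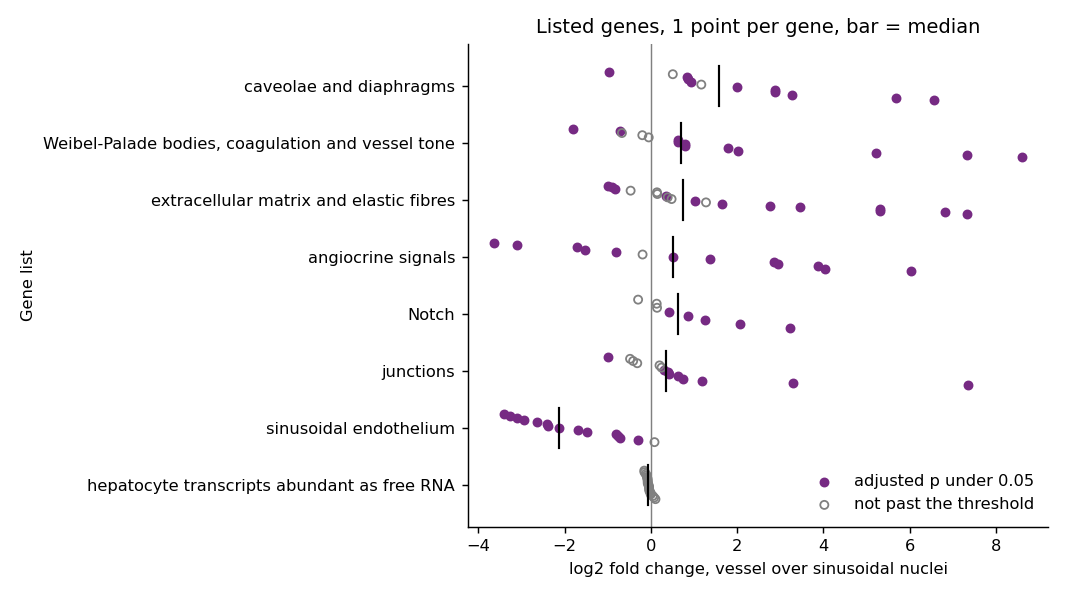
log2 fold change of vessel over sinusoidal nuclei (x axis) for the tested genes of 8 lists (y axis), 1 point per gene, filled where the adjusted p in edgeR is under 0.05, with a bar at the list's median. The caveolae list has its median at 1.58 and the sinusoidal markers at -2.14, and the hepatocyte free RNA list has its median at -0.06 with no filled point.

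Vwf-led nuclei were compared with Mmrn1-led nuclei of the same mouse in the 5 mice that had both. Of 3099 genes tested in edgeR with mouse as a block, 440 (14.2%) passed, 282 higher (9.1%) and 158 lower (5.1%) in Vwf-led nuclei, with a median log2 fold change of 0.16 over all tested genes. Without control 2 the count was 288, and without control 1 and knockout 2 together it was 242. A gene absent from Mmrn1-led nuclei could pass the low-count filter through the Vwf-led sums alone. A gene absent from Vwf-led nuclei had to be found in the far smaller Mmrn1-led sums. The counts of rises and falls by list below are therefore a description, and nothing is read from their balance. The Mmrn1-led sums held 148903 UMIs in all, so a gene with no UMI there could have had up to 3 counts, or 20.1 CPM, and folds against 0 are lower bounds from that floor over the group.

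The genes highest in Vwf-led nuclei, ranked by the same rule, were mostly absent from the Mmrn1-led sums. Nrg1, neuregulin 1, a growth factor for ErbB receptors, had 2693 UMIs in Vwf-led and 0 in Mmrn1-led nuclei, at least 96.8-fold higher. Pde1c, a cyclic nucleotide phosphodiesterase, was at least 32.1-fold higher, and Myof, Lims2, Gcnt2, Spon1, Gda, Npr3 and Lhx6 were at least 7.83-fold to 17.3-fold higher, each with 0 UMIs in Mmrn1-led nuclei. Mecom, a transcription factor of arterial endothelium, averaged 4931 ± 517 CPM in Vwf-led nuclei and had 1 UMI in Mmrn1-led nuclei, a ratio with counting limits of 133 to 29329. Adgrg6, an adhesion receptor, likewise had 1402 UMIs in Vwf-led and 1 in Mmrn1-led nuclei, with counting limits of 27.1 to 5973.

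In the other direction Prox1 averaged 3.85 ± 2.61 CPM in Vwf-led and 1174 ± 540 CPM in Mmrn1-led nuclei (SD, n = 5; log2 fold change -7.58, SE 0.56). Reln averaged 36.4 ± 72.7 CPM in Vwf-led nuclei, of which control 2 alone had 166 CPM, and 2530 ± 599 CPM in Mmrn1-led nuclei (-6.93, SE 0.53), and the phospholipase Plce1 averaged 3.17 CPM in Vwf-led and 1251 CPM in Mmrn1-led nuclei (-7.83, SE 0.56). Myo5b, a myosin of vesicle transport, had 0 UMIs in Vwf-led and 33 in Mmrn1-led nuclei, at least 102-fold lower. Pard6g, Fgf13, Sgsm1, Pcsk6, Thsd4 and Glis3 were also among the 10 lowest by that rule, with at most 26 UMIs each in Vwf-led nuclei. Of the 11 listed lymphatic markers, 4 outside the gates passed the low-count filter, and since a marker low in Vwf-led nuclei could pass it only through the Mmrn1-led ones, nothing is read from how many fell. Besides Prox1 and Reln they were Sema3d, a semaphorin guidance signal, at -3.01 (SE 0.43), and Lyve1, a hyaluronan receptor of lymphatic and sinusoidal endothelium, at -3.47 (SE 0.51). Reln is also on the stellate list, whose 12 markers summed to 144 to 174 CPM in Vwf-led nuclei of knockout mice and 151 to 1042 CPM in those of control mice, and the part of stellate RNA was not tested.

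The VEGF coreceptors differed in opposite directions: Nrp1 averaged 840 CPM in Vwf-led and 55.4 CPM in Mmrn1-led nuclei (3.24, SE 0.54), and Nrp2, coreceptor of Flt4, 278 CPM in Vwf-led and 1062 CPM in Mmrn1-led nuclei (-1.86, SE 0.43). In all, 4 of the 11 tested receptors outside the gates rose and 2 fell. Flt1, VEGF receptor 1, and Flt4, VEGF receptor 3, were summed in the endothelial gate and are given as a description only. Flt1 averaged 920 CPM in Vwf-led and 31.4 CPM in Mmrn1-led nuclei. Flt4 averaged 119 CPM in Vwf-led and 691 CPM in Mmrn1-led nuclei. Vegfc, the ligand of Flt4, averaged 834 CPM in Vwf-led nuclei and 31.4 CPM in Mmrn1-led nuclei (3.60, SE 0.57), 1 of 6 rises among 9 secreted signals with no fall. Rspo3 (3.80, SE 0.51), Ntn4 (4.52, SE 0.59) and Kitl (3.55, SE 0.73) were among them.

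Caveolar genes were not shared evenly between the subsets: of 7 tested, 1 rose and 2 fell. Ehd4 averaged 536 CPM in Vwf-led and 59.5 CPM in Mmrn1-led nuclei (3.36, SE 0.59). Cav1 averaged 84.5 CPM in Vwf-led and 374 CPM in Mmrn1-led nuclei (-1.72, SE 0.45), and Pacsin2 109 CPM in Vwf-led and 252 CPM in Mmrn1-led nuclei (-1.22, SE 0.45). The Pacsin2 call was lost without knockout 1, knockout 2, control 1 or control 2 (edgeR adjusted p of 0.20, 0.35, 0.23 and 0.12) and that of Cav1 without control 1 and knockout 2 together (0.095). Of Weibel-Palade and vessel tone genes, 4 of 10 rose and none fell, a balance that the low-count filter favours. Edn1 had 381 UMIs in Vwf-led nuclei and 1 in Mmrn1-led nuclei, a ratio with counting limits of 7.33 to 1626, Nos3, endothelial nitric oxide synthase, rose by 2.80 (SE 0.68), and Selp was at least 6.29-fold higher.

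Among junction genes outside the gates, 3 of 10 rose and 1 fell: Jam2 by 4.55 (SE 0.60), Esam and Gja5 at least 7.08-fold and 6.47-fold higher, and Gja1, connexin 43, at -2.51 (SE 0.47). Of 16 transcription factors, 6 rose and 1 fell, with Gata4 at 719 CPM in Vwf-led and 28.6 CPM in Mmrn1-led nuclei (3.83, SE 0.59), Meis2 at 1.75 (SE 0.41), Sox17 at least 5.07-fold higher, and Prox1 as the fall. In lipid handling Cd36, a fatty acid transporter, rose by 2.26 (SE 0.50) and Pparg, a regulator of lipid storage genes, was at -3.29 (SE 0.49). Scarb1 also rose, with 156 UMIs in Vwf-led and 2 in Mmrn1-led nuclei (counting limits of the ratio 2.29 to 70.0), and these 3 were the calls among 5 tested. Notch, leukocyte adhesion, matrix and interferon lists had 1, 2, 2 and 1 rises among 3, 4, 11 and 4 tested and no fall, with Jag1 at 1.87 (SE 0.62) and Vcam1 at 304 UMIs in Vwf-led and 3 UMIs in Mmrn1-led nuclei (counting limits of the ratio 3.70 to 53.3). The Jag1 call was lost without knockout 1, control 1 or control 2 (edgeR adjusted p of 0.15, 0.054 and 0.12), and without control 1 and knockout 2 together those of Gja1, Nrp2, Scarb1 and Jag1 were lost (0.14, 0.15, 0.15 and 0.075). No hepatocyte free RNA transcript of 16 tested passed.

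Clustering the 428 nuclei without the gate genes and Plvap gave 8 clusters, which are described with no test. Cluster 6, of 39 nuclei, held all 37 Mmrn1-led nuclei. It was led by Reln, Prox1 and Ccl21a, had 473 CPM of Ccl21a, and was called lymphatic-like. The other 2 nuclei were Vwf-led and from control 2. Ank3, a marker on the stellate list, was also among its leading genes, at 1658 CPM in 28.2% of its nuclei, and Ntm and Dcn of that list stood at 619 and 327 CPM. Over all vessel nuclei the 12 stellate markers summed to 188 to 367 CPM in knockout mice and 151 to 1953 CPM in control mice, and their part in cluster 6 was not tested. Its nuclei came from control 2 in 24 cases and from control 3 in none.

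Vwf-led nuclei fell mainly into 2 states told apart by Rspo3 and Adgrg6. Clusters 1 and 5, of 87 and 47 nuclei, had 4312 and 5226 CPM of Rspo3 and 540 and 499 CPM of Wnt9b, both markers of the central vein list. No gene of a marker list was among the 15 leading genes of cluster 1, and Kit of the central vein list and Plxnc1 of the sinusoidal list were among those of cluster 5, so both were left unnamed. The pair differed in Kit, a receptor that marks pericentral endothelium, at 12.4 CPM in cluster 1 and 653 CPM in cluster 5. Eln was the reverse, at 1158 CPM in cluster 1 and 287 CPM in cluster 5. In cluster 5, 21.3% of nuclei had at least 2 Stab2 UMIs and in cluster 1 none had.

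Clusters 2, 4 and 7, of 83, 65 and 35 nuclei, had 1716, 2152 and 1118 CPM of Adgrg6 and 7440, 9470 and 9395 CPM of Mecom, with Rspo3 at no more than 7.71 CPM. The arterial and periportal markers Gja5 and Efnb2 stood at 187 to 301 and 246 to 455 CPM in them. Col8a1, Nrg1 and Ednrb came first in cluster 2 and Sema5b, Gucy1a1 and Plat in cluster 4, while Bnc2, Thbs1 and Sulf1 were among the leading genes of cluster 7. Jag1 in cluster 2, an arterial and periportal marker, was their only leading gene on a marker list, and all 3 were left unnamed. Sema3g, a marker of arteries, was highest in cluster 7 at 100.3 CPM.

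Cluster 3, of 67 nuclei, shared Adgrg6 at 1499 CPM and Mecom at 4899 CPM with those clusters, while 67.2% of its nuclei had at least 2 Stab2 UMIs. Adam23 and Dnase1l3, which sinusoidal nuclei express, were among its leading genes at 892 and 222 CPM, and it was left unnamed. Cluster 8, of 5 nuclei, was led by Arhgap15 and Ptprc, a leukocyte gene, at 2125 CPM, and was also left unnamed.

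At the level of single nuclei, Rspo3 without Adgrg6 was found in 107 Vwf-led nuclei (27.4%), Adgrg6 without Rspo3 in 229 (58.6%), both in 27 (6.91%) and neither in 28 (7.16%). These genes were chosen for this split after their values were seen. Nuclei with Rspo3 alone had 545 CPM of Wnt9b and 0 UMIs of Gja5, and nuclei with Adgrg6 alone had 1.13 CPM of Wnt9b and 226 CPM of Gja5. Nuclei with Rspo3 alone made up 32.1%, 33.3% and 28.3% of Vwf-led nuclei in knockout mice and 21.3%, 30.6% and 16.7% in control mice, and the ranges overlapped. Clusters 1 and 5 together made up 33.3%, 38.1% and 37.7% of vessel nuclei in knockout mice and 26.6%, 27.5% and 29.2% in control mice, and these ranges did not overlap. Over all vessel nuclei the 6 central vein and pericentral markers summed to 5078 to 5444 CPM in knockout mice and 3894 to 4760 CPM in control mice, also without overlap. In Vwf-led nuclei alone they summed to 5159 to 5875 CPM in knockout mice and 4142 to 5552 CPM in control mice, and these ranges overlapped. None of these shares and sums was tested.

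Plvap was carried by both states and was lowest in cluster 3. Pooled over mice it stood at 122 CPM in cluster 1 (exact Poisson 95% interval 90.2 to 161), 158 in cluster 5 (108 to 223), 112 in cluster 2 (77.3 to 156), 157 in cluster 4 (110 to 219) and 116 in cluster 7 (64.8 to 191). Cluster 3 had 39.8 CPM (20.6 to 69.5), and cluster 6 had 216 CPM (152 to 298), with 5 of its 37 Plvap UMIs from the 2 Vwf-led nuclei. The Plvap intervals cover counting error only. Stab2 stood at 1745 CPM in cluster 3, 1290 CPM in cluster 5, 847 CPM in cluster 6 and 259 CPM in cluster 2. In clusters 1, 4 and 7 it stood at 7.47, 44.9 and 15.4 CPM. The part of sinusoidal RNA in the Plvap level of the clusters was not tested. In nuclei with Rspo3 alone Plvap was 221, 157 and 162 CPM in knockout mice and 67.4, 101 and 260 CPM in control mice. In nuclei with Adgrg6 alone it was 73.0, 86.9 and 63.2 CPM in knockout mice and 145, 111 and 114 CPM in control mice. The second set does not overlap between the groups and the first does, each value rests on 4 to 26 UMIs, and the subsets were picked after the data were seen, so no test is given.

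**Figure D4:**
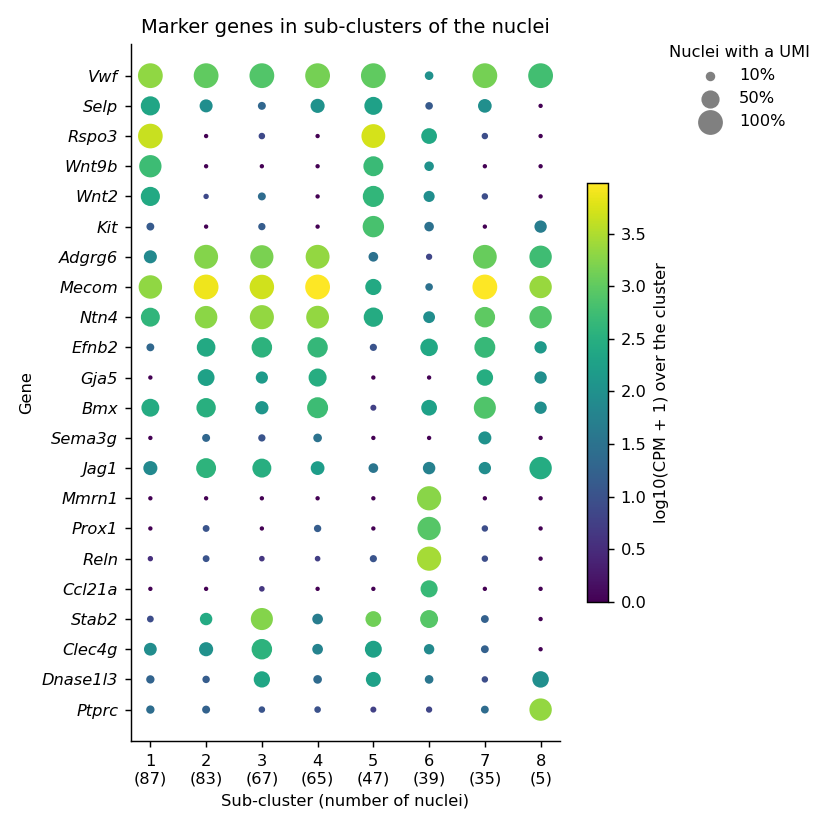
Marker genes (y axis) in the 8 clusters of vessel nuclei (x axis, with the number of nuclei), with colour for the level as log10(CPM + 1) and point area for the share of nuclei with a UMI, drawn at 0 where no UMI was found. Rspo3 and Wnt9b are high in clusters 1 and 5, Adgrg6 and Mecom in clusters 2, 3, 4 and 7, and Prox1, Reln and Ccl21a in cluster 6.

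Between genotypes 1 gene passed the test in vessel nuclei. Of 5002 genes tested, only Sdk1 passed in edgeR (0.02%), 217 had an unadjusted p under 0.05, and DESeq2 called 1. Sdk1, sidekick 1, an adhesion protein of the immunoglobulin superfamily known from synapses (mm10 chromosome 5, 141241490 to 142215586, plus strand), stood at 457, 572 and 728 CPM in knockout mice and at 223, 236 and 231 CPM in control mice. Each knockout mouse lay above each control mouse, and the log2 fold change was 1.34 (SE 0.21, adjusted p = 0.043). In Vwf-led nuclei alone it was also the only call among 4804 genes (0.0208%), at 499, 626 and 739 CPM in knockout mice and 240, 272 and 231 CPM in control mice (1.32, SE 0.21, adjusted p = 0.026). There the call was lost without knockout 2, knockout 3, control 2 or control 3, with edgeR adjusted p of 0.13, 0.092, 0.13 and 0.36.

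The call was near the threshold. Leaving out any mouse but knockout 1 ended it in vessel nuclei, with adjusted p of 0.20 without knockout 2, 0.13 without knockout 3, 0.15 without control 1, 0.29 without control 2 and 0.21 without control 3, while the fold change stayed between 1.14 and 1.499. Without control 1 and knockout 2 together it was 1.33 (adjusted p = 0.36). In sinusoidal nuclei Sdk1 was far lower, at 23.0, 14.7 and 25.3 CPM in knockout mice. Control mice there held 4.91, 3.496 and 3.03 CPM, each below each knockout mouse. Genotype was not tested in sinusoidal nuclei alone. The knockout effect in vessel minus that in sinusoidal nuclei was -1.08 (SE 0.29, adjusted p = 0.39), and it was past the threshold without control 1 (-1.33, adjusted p = 0.022) and without control 1 and knockout 2 together (-1.53, adjusted p = 0.010), but not with all 6 mice.

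Over all genes, the knockout effect in vessel nuclei differed from that in sinusoidal nuclei for 3 of 12744 (0.0235%), of which Pid1 and Tox were on the higher side (0.0157%) and Pkia on the lower (0.00785%). This count was 47 without control 1, 24 without control 3, 15 without control 2, 6 without knockout 1 or knockout 3, and 40 without control 1 and knockout 2 together.

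No further gene passed. Mice of the 2 groups did not overlap in 496 of the 5002 genes (9.92%), 263 higher and 233 lower in knockout mice. Only among these, above a minimum mean level and without predicted-gene symbols, were the next genes ranked by unadjusted p. They were Vcam1 (1.14, SE 0.25), Fabp1 (0.83, SE 0.19), H2-Q4 (1.04, SE 0.27) and Palmd (1.14, SE 0.31) on the higher side. On the lower side they were Limch1 (-0.68, SE 0.19), Nfatc1 (-0.93, SE 0.27), D5Ertd579e (-0.94, SE 0.28), Cttnbp2nl (-0.78, SE 0.23) and Spred2 (-0.83, SE 0.25). Their adjusted p in edgeR ran from 0.54 to 0.96.

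Of 5 tested leukocyte adhesion and chemokine genes, 3 did not overlap and were higher in knockout mice (5.26% over all tested genes), and 1 was lower (4.66%; median 0.91 against -0.01 over all tested genes), with none past the threshold. Vcam1, the integrin ligand VCAM-1, stood at 272, 344 and 199 CPM in knockout mice and at 108, 151 and 97.8 CPM in control mice. Selp stood at 151, 156 and 153 CPM in knockout mice and at 101, 63.1 and 84.5 CPM in control mice. Icam1 stood at 220, 100.02 and 76.6 CPM in knockout mice and at 67.6, 52.9 and 66.7 CPM in control mice. Selp and Icam1 are named because their values were seen. Pooled over mice, Selp stood at 219 and 178 CPM in clusters 1 and 5, whose share was larger in each knockout mouse than in any control mouse, and at 19.9 to 103 CPM in clusters 2, 3, 4 and 7. Vcam1 stood at 443 and 203 CPM in clusters 1 and 5 and at 80.9 to 146 CPM in clusters 2, 3, 4 and 7. Cluster 8, led by leukocyte genes, gave 2 nuclei in knockout 1 and 3 in control mice, and summed T and NK cell markers ran from 7.66 to 280 CPM in knockout mice and from 20.3 to 47.3 CPM in control mice. The part of cluster make-up and of leukocytes in these values was not tested.

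Knockout mice had the higher level for 16 of the 20 listed hepatocyte transcripts of free RNA, against 2429 of all 5002 tested genes, and 4 did not overlap, against 5.26% over all tested genes. Their median was 0.24, against -0.01 over all tested genes, and none passed. Alb, albumin, stood at 518, 644 and 946 CPM in knockout mice and at 497, 380 and 396 CPM in control mice. Fabp1, the hepatocyte fatty acid carrier, stood at 315, 360 and 383 CPM in knockout mice and at 196, 210 and 182 CPM in control mice. Apoa2 and Fga were the other two, named for their values. In the same nuclei 10 hepatocyte markers summed to 1277 to 2267 CPM in knockout mice and 1129 to 1338 CPM in control mice, and in sinusoidal nuclei to 1344 to 2082 CPM in knockout mice and 1026 to 1374 CPM in control mice. The part of free RNA in these differences was not tested.

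Vwf itself stood at 1078, 1152 and 1581 CPM in knockout mice and at 933, 1249 and 1120 CPM in control mice, and Pecam1 averaged 1653 ± 369 CPM in knockout mice and 1830 ± 406 CPM in control mice (SD, n = 3 each). Mmrn1 followed the number of Mmrn1-led nuclei, at 134, 176 and 15.3 CPM in knockout mice and 169, 382 and 0 CPM in control mice. No other list held a gene past the threshold in edgeR. The median log2 fold changes were -0.05 for 8 caveolar genes, -0.04 for 13 Weibel-Palade and vessel tone genes, -0.19 for 12 secreted signals, -0.07 for 6 Notch genes, -0.02 for 13 junction genes and 0.02 for 15 growth factor receptors. They were -0.13 for 15 matrix genes, 0.04 for 7 lipid handling genes, -0.17 for 18 transcription factors and 0.34 for 10 interferon response genes. Of these 10, 8 were higher in knockout mice, against 2429 of all 5002 tested genes. On the higher side 1 of them did not overlap, against 5.26% over all tested genes. Genotype was not tested in Mmrn1-led nuclei, since only 1 mouse had at least 20 of them.

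**Figure D5:**
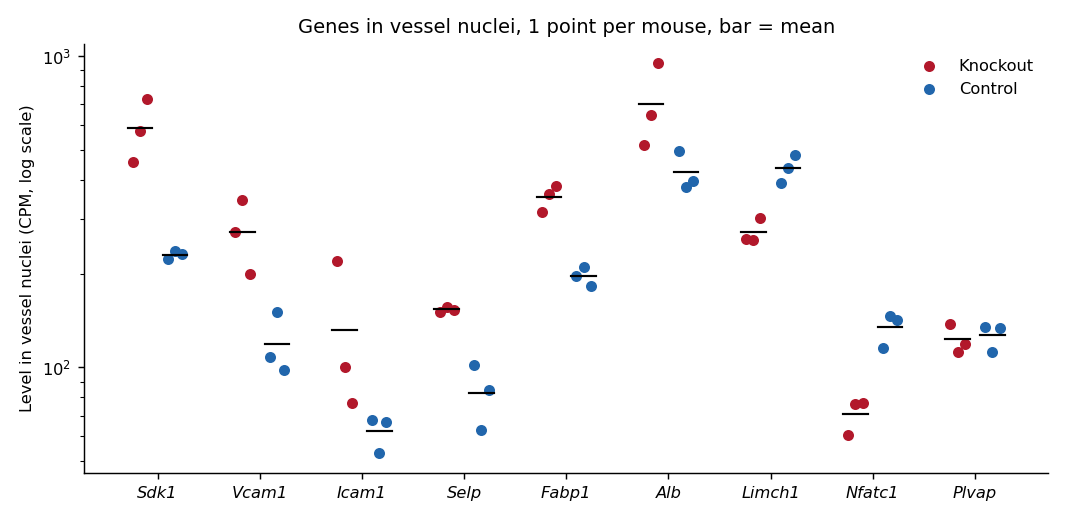
Level of 9 genes in vessel nuclei (y axis, CPM on a log scale), 1 point per mouse with knockout left of control and a bar at the mean. The 3 knockout mice lie above the 3 control mice for Sdk1, Vcam1, Icam1, Selp, Fabp1 and Alb and below them for Limch1 and Nfatc1, but Sdk1 alone passed in edgeR (adjusted p = 0.043), and Plvap overlaps. Vcam1, Fabp1, Limch1 and Nfatc1 were picked from genes whose groups do not overlap, and Selp and Icam1 for their values. Their separation is therefore no result.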

How the data were processed

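The authors deposited raw UMI counts per gene and nucleus, 1 filtered matrix per mouse, made with Chromium Next GEM Single Cell 3′ v3.1 chemistry per the labels' protocols. The genome was mm10 per the submitters' processing notes, which name Cell Ranger 7.0.1, while a file header gives 7.1.0. Doublets were called with scrublet in scanpy 1.11.5 and kept. Free RNA was not subtracted.

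The members and gene lists were chosen with earlier results of these data known. UMIs were summed per mouse and class, and the sums were tested with edgeR 4.0.16 (quasi-likelihood, TMM, low-count filter, Benjamini-Hochberg) in R 4.3.3 after tests on simulated data. Comparisons between classes of the same mice had mouse as a block, and those between genotypes did not. Approximate intervals are the estimate ± 1.96 SE. DESeq2 1.42.0 was an alternative. Single values were tested by exact permutation over mice. Clusters came from scanpy and leidenalg 0.10.2 (2000 variable genes, 15 components, resolution 1). Level means CPM of class UMIs, a 3′ count not corrected for length. Each mouse is 1 library, so p-values between genotypes are set against the spread between mice, with library not told apart. Those between classes with mouse as a block are set against the spread over mice of the difference within a mouse.

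Named genes were those with the largest fold change past the threshold, and up to 4 of each list by adjusted p. Ranking by fold change took only genes above a minimum mean level in the higher class and without predicted-gene symbols. Between genotypes they were Plvap, Vwf, Mmrn1, Pecam1, the called genes and the next by unadjusted p, up to 5 per direction with the called ones. These next genes were taken only from those whose groups did not overlap, above a minimum mean level and without predicted-gene symbols. A called gene with 3 or fewer counts in a class is given as a bound or a ratio with counting limits. Deposited features numbered 32285.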

Additional observations from a re-analysis of the deposited data

Results flagged for a closer look

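The knockout effect in vessel nuclei differed from that in sinusoidal nuclei for 3 of 12744 genes (0.0235%) by an edgeR interaction test, and these were the results picked out by a difference between the 2 classes. Groups held 3 mice, so no test for a single outlying mouse was made.

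Pid1, a phosphotyrosine-binding adaptor known to dampen insulin signalling, had an interaction of 2.27 (SE 0.31, adjusted p = 2e-05). In vessel nuclei it stood at 237, 236 and 91.9 CPM in knockout mice and at 77.7, 140 and 44.5 CPM in control mice. In sinusoidal nuclei it stood at 20.6, 23.3 and 12.4 CPM in knockout mice and at 42.7, 69.8 and 17.3 CPM in control mice. Both ranges overlapped between genotypes, and thinning to 1000 UMIs gave 1.66 with an adjusted p of 0.91. Pid1 was also among the leading genes of cluster 1, at 441 CPM, and the part of that cluster in the difference was not tested.

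Tox, a nuclear factor best known from lymphocytes, had an interaction of 1.87 (SE 0.34, adjusted p = 0.0082). It stood at 151, 320 and 103 CPM in knockout mice and at 199, 197 and 142 CPM in control mice in vessel nuclei. In sinusoidal nuclei it stood at 6.22, 7.76 and 6.47 CPM in knockout mice and at 28.8, 36.6 and 11.2 CPM in control mice. The adjusted p was 0.37 without knockout 2, 0.20 without control 1 and knockout 2 together, 0.20 without doublets, 0.094 with DESeq2 and 1 with no Stab2 condition on sinusoidal nuclei. Thinned to 1000 UMIs, the value was 0.59.

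Pkia, an inhibitor of protein kinase A, had an interaction of -5.77 (SE 1.17, adjusted p = 0.034). It stood at 0, 8.002 and 0 CPM in knockout mice and at 30.4, 61.0 and 17.8 CPM in control mice in vessel nuclei. In sinusoidal nuclei it was at 2.47 to 5.19 CPM in knockout mice and 0 to 1.75 CPM in control mice. With knockout 1 and knockout 3 at 0 the fitted value is no bound on the change. Without knockout 1, knockout 3 or control 2 the adjusted p was 0.31, 0.064 and 0.055, with DESeq2 it was 0.073, with no Stab2 condition 0.12, and after thinning 0.56.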

How the results depend on the processing

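Leaving out control 1 and knockout 2 together was chosen after seeing the data. Between genotypes, the count of 1 gene in vessel nuclei became 18 with no low-count filter, 0 with each nucleus thinned to 1000 UMIs, 0 without those 2 libraries and 0 to 1 leaving out 1 mouse; the 1 gene called without control 1 was not Sdk1. In Vwf-led nuclei it became 12 with no filter, 0 thinned and 0 to 3 leaving out 1 mouse, and the 1 gene called without the 2 libraries was not Sdk1. Plvap in vessel nuclei, at -0.04 on the log2 scale, turned to 0.0948 with at least 4 Vwf and Mmrn1 UMIs, 0.0786 with Clec4f and Lrat at 0 and 0.0645 without the 2 libraries, and ran from -0.123 to 0.0316 leaving out 1 mouse. In Vwf-led nuclei it ran from -0.0927 without control 2 to 0.149 without control 3, with -0.0616 without knockout 1. Leaving out 1 mouse, Vwf ran from -0.00893 without knockout 3 to 0.317 without control 2, and Mmrn1 from -1.46 without knockout 2 to 0.259 without control 2. The share of Mmrn1-led nuclei differed by -5.64 to 3.53 points leaving out 1 mouse, with 0.472 without knockout 3.

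Vessel over sinusoidal calls fell to 1556 when thinned, and Plvap stayed between 2.60 and 3.00 under every setting run. Vwf-led over Mmrn1-led calls were 733 with no filter, 140 thinned, 242 without the 2 libraries and 288 to 474 leaving out 1 mouse. The count of 3 genes whose genotype effect differed between vessel and sinusoidal nuclei was 1 with DESeq2, 18 with no filter, 6 without doublets, 20 with at least 4 Vwf and Mmrn1 UMIs, 6 with Clec4f and Lrat at 0, 40 without the 2 libraries and 4 to 47 leaving out 1 mouse. The cause of these changes was not tested, except that thinning leaves fewer counts. Without the mouse block, 2770 genes passed in vessel over sinusoidal nuclei, with Plvap at 2.84, and 561 in Vwf-led over Mmrn1-led nuclei. No paired analysis was possible between genotypes because mice were numbered in accession order and the labels tie no knockout mouse to a control mouse. Genotype in Mmrn1-led nuclei was not tested, and its alternatives were not run. Plvap between genotypes was not tested after thinning.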
